A study of Mus musculus with 6 samples.

Results

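The genes of the major histocompatibility complex (MHC) and of antigen presentation were followed in primary hepatocytes of 6 adult C57BL/6 mice. Members were all gene symbols that start with H2- in the annotation of the array, together with B2m, Cd74, Ciita, Tap1, Tap2, Tapbp, Tapbpl and Nlrc5. This gave 53 symbols, of which 48 had at least 1 probe set that named that gene alone, out of 20416 genes with such probe sets. The mice of the miR-143DOX group carried a transgenic, doxycycline-inducible miR-143 allele (n = 3), and the control mice were wildtype littermates (n = 3). Both groups drank water with 4 mg/ml doxycycline and 10% sucrose for 8 days, so the drug itself is common to all 6 animals. The labels do not say which promoter drives the inducible allele or in which cells, and the level of miR-143 was not analysed here. Hepatocytes were isolated by collagenase perfusion and snap-frozen, and 1 Affymetrix whole-transcript array was hybridised per mouse, which limits the precision to 3 values a group. The question addressed here is how the presentation genes compare once miR-143 has been induced. All 10 hepatocyte markers examined were above the filter on dim genes described below. So were all 13 Kupffer cell and macrophage markers found, all 10 of sinusoidal endothelium and all 10 of stellate cells. The purity of the isolates was not tested.

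MHC class I molecules consist of a heavy chain and beta-2-microglobulin, and they show peptides made by the proteasome to cytotoxic T cells on nearly every nucleated cell. The peptides are pumped into the endoplasmic reticulum by the Tap1-Tap2 transporter and loaded there with the help of tapasin (Tapbp). MHC class II molecules are made mainly by dendritic cells, B cells and macrophages, and they show peptides from endosomes to helper T cells. The invariant chain Cd74 escorts class II molecules to the endosome, where DM exchanges the fragment it leaves in the groove for other peptides. Nlrc5 and Ciita are related regulators that switch on class I and class II genes, and interferon gamma induces both. Healthy hepatocytes carry class I and little or no class II.

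Of the 53 symbols, 39 belong to class I with its loading genes and regulator, 12 to class II with Cd74 and Ciita, and 2 to neither. The 2 are H2-Ke2, an older name of the prefoldin subunit gene Pfdn6, and H2-Ke6, a hydroxysteroid dehydrogenase gene, both of which lie in the MHC region. The 5 symbols without a probe set of their own were H2-Q5, H2-T9, H2-T17, H2-T18 and H2-Tw3, all of class I. A gene's value was the mean log2 intensity over its own probe sets, after quantile normalization of the deposited values. The 25% of genes with the lowest mean over the 6 arrays, under log2 5.06, were not tested. This left 39 of the 48 genes, 26 of class I, 11 of class II and both of neither class. Class I genes are near-identical copies of each other in long stretches, and which related transcripts a probe also binds was not tested. Values of H2-Q, H2-T and H2-M genes are therefore uncertain as values of that gene alone.

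No member passed 5% false discovery rate (FDR) in limma's moderated test, and 0 of all 15312 genes tested did (0%), with 469 at an unadjusted p under 0.05 (3.06%). Among the 39 tested members, 1 lay under that unadjusted threshold, the class II chaperone gene H2-DMb1, which was lower in miR-143DOX, against 1.68% of all genes lower at that threshold. The 3 miR-143DOX values all lay below the 3 control values for 4 of the 39 members, H2-DMb1, H2-D1, H2-Q7 and H2-T23, against 3.73% of all genes. None of the 39 was separate in the other direction, against 3.4% of all genes, and 0 were higher at an unadjusted p under 0.05, against 1.38%. Among the 9 genes under the filter, H2-M2 alone was separate, at 4.59, 4.73 and 4.57 in miR-143DOX replicates 1, 2 and 3, against 4.46, 4.47 and 4.41 in control replicates 1, 2 and 3 (log2), and turned to -0.13 with its brightest probe set.

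**Figure D1:**
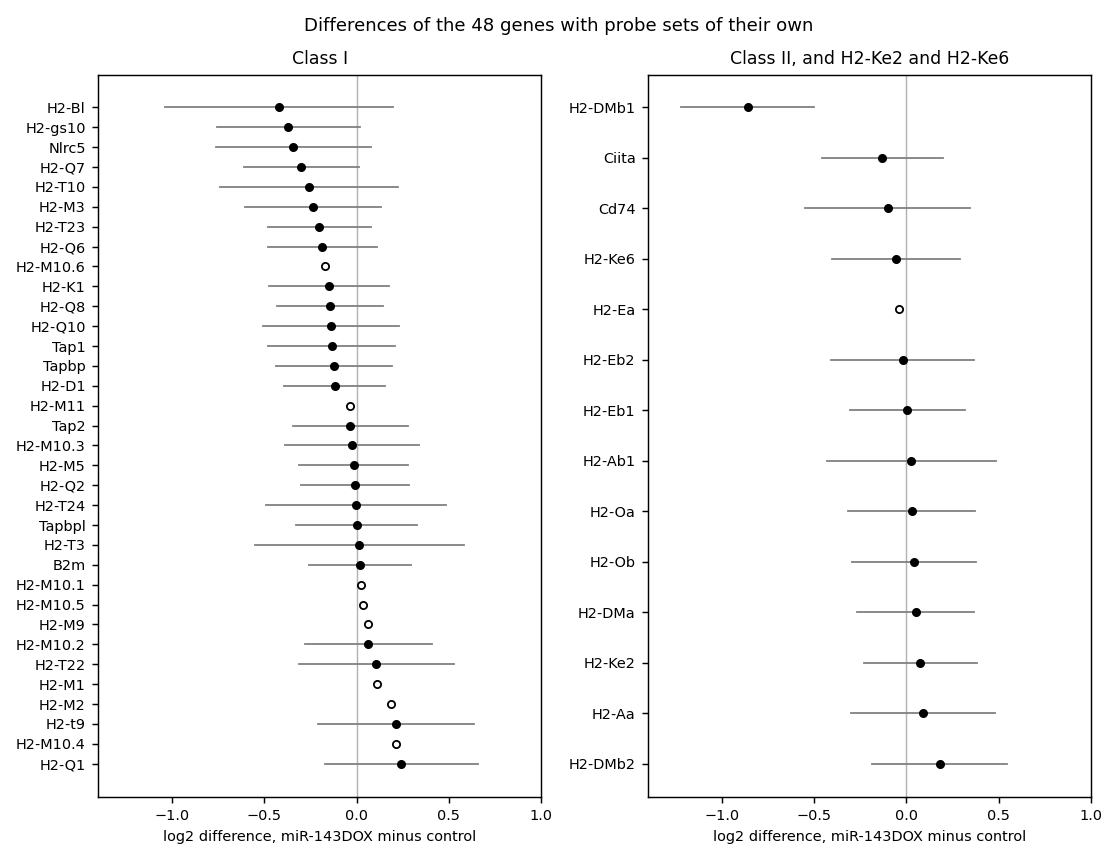
Difference of each of the 48 genes in log2 intensity, miR-143DOX minus control, class I on the left and class II with H2-Ke2 and H2-Ke6 on the right. Filled points are tested genes with their 95% interval from limma, and open points are genes under the filter on dim genes. H2-DMb1, at -0.86, is the gene whose interval lies farthest from 0.

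Over all 34 class I genes the array means overlapped between the groups, and over the 26 that were tested they did not. The mean log2 over the 34 class I genes was 7.17, 7.15 and 7.09 in miR-143DOX replicates 1, 2 and 3, against 7.26, 7.19 and 7.15 in control replicates 1, 2 and 3. The median difference over these 34 genes was -0.03, against 0.01 over all genes tested, and 22 of the 34 lay below 0. Of the 26 that were tested, 20 lay below 0 (76.9%), against 47.6% of all genes tested, with a median of -0.12. Their mean log2 was 8.00, 7.97 and 7.91 in miR-143DOX replicates 1, 2 and 3, against 8.13, 8.03 and 8.02 in control replicates 1, 2 and 3, so that every miR-143DOX array lay below every control array, at a difference of -0.10. The gap between the nearest arrays of the groups was narrow. With the median over a gene's probe sets in place of the mean, the median over the 34 genes was -0.12, and leaving out replicate 2 gave -0.12 for the miR-143DOX array and -0.10 for the control array. Over the changes of scaling, filter, summary and model, that median ran from -0.12 to -0.02. The difference in mean log2 over the 34 genes, -0.06 in the main setting, ran from -0.12 to -0.02 as well. These genes share sequence and regulators, so their counts are not counts of independent genes.

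Nlrc5, the class I transactivator, measured 6.57, 6.70 and 6.98 in miR-143DOX replicates 1, 2 and 3, against 7.14, 6.69 and 7.45 in control replicates 1, 2 and 3 (log2 intensity over 46 probe sets). The highest values were those of control replicates 3 and 1, and control replicate 2 lay within the miR-143DOX range. The difference was -0.34 (standard error 0.19, 95% interval -0.76 to 0.08) and did not pass. It was -0.16 without control replicate 3, -0.54 without control replicate 2 and -0.06 with the brightest of the 46 probe sets, while 41 of the 46 lay below 0.

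The classical heavy chain genes H2-K1 and H2-D1 encode the molecules that present most cytosolic peptides. H2-K1 measured 11.03, 11.22 and 11.30 in miR-143DOX replicates 1, 2 and 3, against 11.31, 11.14 and 11.54 in control replicates 1, 2 and 3. Its groups overlapped, at a difference of -0.15 (95% interval -0.47 to 0.18), which turned to 0.045 with its brightest probe set. H2-D1 measured 10.78, 10.82 and 10.86 in miR-143DOX replicates 1, 2 and 3, against 10.94, 10.89 and 10.99 in control replicates 1, 2 and 3. Its groups were separate and narrow, with 10.82 ± 0.04 in miR-143DOX and 10.94 ± 0.05 in control (SD, n = 3 each). All 7 probe sets that name H2-D1 alone lay below 0, from -0.30 to -0.00135. Those that it shares with H2-T3, H2-T18 or H2-Tw3 went both ways, from -0.64 to 0.21. The difference of H2-D1, -0.12 (95% interval -0.39 to 0.15), did not pass, at an unadjusted limma p of 0.358. limma moderates a narrow spread towards that of all genes, whose median within-group SD was 0.18. B2m, the light chain shared by all class I molecules, overlapped between the groups, at 13.30 ± 0.02 in miR-143DOX and 13.28 ± 0.09 in control (SD, n = 3 each), with a 95% interval of the difference from -0.26 to 0.29.

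The genes of peptide transport and loading overlapped between the groups, all 5 of them with B2m. Tap1 measured 7.33, 7.63 and 7.74 in miR-143DOX replicates 1, 2 and 3, against 7.82, 7.47 and 7.82 in control replicates 1, 2 and 3, a difference of -0.14 (95% interval -0.48 to 0.21). It was -0.02 without miR-143DOX replicate 1, the lowest array. Its partner Tap2 differed by -0.03 (95% interval -0.35 to 0.28). Tapasin, the bridge between transporter and heavy chain encoded by Tapbp, differed by -0.12 (95% interval -0.44 to 0.19). Tapbpl, which encodes a tapasin-related peptide editor, had a 95% interval from -0.33 to 0.33.

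Among the nonclassical class I genes, 6 of the 7 genes of the H2-Q group with H2-gs10 lay below 0, with a median of -0.14. H2-Q7, a member of the Qa-2 group of heavy chains, measured 9.83, 9.48 and 9.48 in miR-143DOX replicates 1, 2 and 3, against 9.87, 9.85 and 9.96 in control replicates 1, 2 and 3. The groups were separate by a narrow gap between miR-143DOX replicate 1 and control replicate 2, and the difference was -0.30 (95% interval -0.61 to 0.01), which did not pass. All 5 probe sets of H2-Q7 alone lay below 0, from -0.54 to -0.00152. The probe set that H2-Q7 shares with H2-Q6 went the other way, at 13.56, 13.50 and 13.51 in miR-143DOX replicates 1, 2 and 3, against 13.43, 13.48 and 13.44 in control replicates 1, 2 and 3. The probe set shared by H2-Q6, H2-Q7 and H2-Q8 differed by -0.02, with overlapping groups. H2-gs10 differed by -0.37 (95% interval -0.76 to 0.02) and H2-Q1 by 0.24 (95% interval -0.17 to 0.66), and 3 of the 9 probe sets of H2-Q1 lay below 0. H2-Q10, whose product mouse liver secretes into serum, measured 10.37, 10.57 and 10.89 in miR-143DOX replicates 1, 2 and 3, against 10.81, 10.51 and 10.93 in control replicates 1, 2 and 3, with overlapping groups and a difference of -0.14 (95% interval -0.51 to 0.23).

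H2-T23 encodes Qa-1, a nonclassical heavy chain read by receptors of natural killer cells. It measured 9.74, 9.87 and 9.91 in miR-143DOX replicates 1, 2 and 3, against 10.02, 10.00 and 10.10 in control replicates 1, 2 and 3. The groups were separate, at a difference of -0.20 (95% interval -0.48 to 0.08), with 4 of 6 probe sets below 0 and 0.008 for the brightest. The 6 H2-T genes with probe sets of their own, of which H2-T22 and H2-T3 have 1 each, ranged from -0.26 for H2-T10 to 0.21 for H2-t9; H2-T10 and H2-T3 were named after their values were seen. The value of H2-t9 rests on 2 probe sets that went opposite ways, at 0.72 for the brighter and -0.29 for the other, and it was -0.0021 without control replicate 3. H2-M3, which presents N-formylated bacterial peptides, differed by -0.24 (95% interval -0.61 to 0.13) and by 0.17 with its brightest probe set. Of the 12 H2-M genes, 8 lay under the filter on dim genes, among them 4 of the 6 H2-M10 genes, which are known from the vomeronasal organ.

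**Figure D2:**
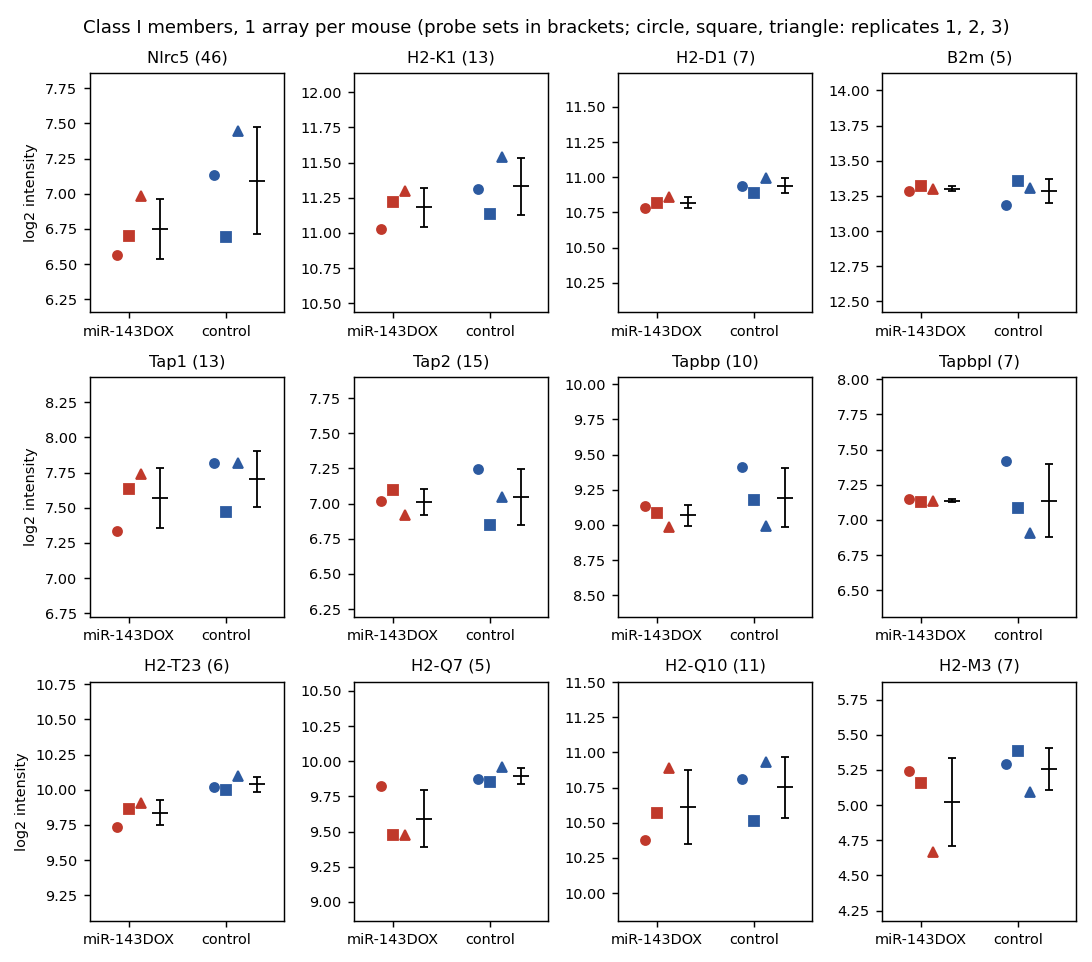
Log2 intensity of 12 class I members in each array, miR-143DOX on the left and control on the right of each panel, with the mean and SD of the 3 arrays beside the points. All panels span the same number of log2 units. H2-D1, H2-T23 and H2-Q7 do not overlap between the groups, while B2m overlaps, with means of 13.30 in miR-143DOX and 13.28 in control.

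Class II as a whole overlapped between the groups. The mean log2 over the 12 class II genes was 5.90, 6.05 and 5.91 in miR-143DOX replicates 1, 2 and 3, against 6.13, 5.89 and 6.02 in control replicates 1, 2 and 3. The median difference over the 12 was 0.02, against 0.01 over all genes tested, and 5 lay below 0. Without single arrays that median ranged from -0.08 to 0.04. In tissue isolates of this kind, fewer cells of a type and less RNA per cell cannot be told apart. Beside these values, the mean log2 of 13 Kupffer cell and macrophage markers ranged from 6.97 to 7.31 in miR-143DOX and from 7.09 to 7.19 in control, with 8 of 13 tested above 0. The 10 dendritic cell markers ranged from 5.13 to 5.30 in miR-143DOX and from 5.17 to 5.26 in control, with Xcr1, Clec9a, Cd209a and Ccr9 under the filter. The 7 B cell markers found ranged from 4.92 to 5.08 in miR-143DOX and from 4.81 to 4.86 in control, with Cd79a, Ms4a1 and Cr2 under the filter and all 4 tested above 0. Of these 4, Faim3 was higher at an unadjusted p under 0.05, with separate groups and a difference of 0.34 (standard error 0.15). Over all genes tested, 1.38% were higher at that threshold and 47.6% lay below 0. The B cell markers under the filter went both ways, at 0.42 for Cd79a, -0.05 for Ms4a1 and -0.0039 for Cr2. The part of these cells in the class II values was not tested.

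Ciita, the class II transactivator, measured 5.27, 5.77 and 5.46 in miR-143DOX replicates 1, 2 and 3, against 5.65, 5.58 and 5.65 in control replicates 1, 2 and 3, with overlapping groups and a difference of -0.13 (95% interval -0.46 to 0.20). Cd74, the invariant chain, measured 6.62, 7.31 and 7.43 in miR-143DOX replicates 1, 2 and 3, against 7.45, 7.09 and 7.13 in control replicates 1, 2 and 3. miR-143DOX replicate 1 was the lowest array for both genes. The difference of Cd74 was -0.10 (95% interval -0.55 to 0.34), and it was 0.15 without that array and 0.012 without control replicate 1. H2-Aa and H2-Ab1 encode the chains of I-A, the class II molecule on the surface of C57BL/6 cells, and H2-Eb1 encodes the beta chain of I-E, whose alpha chain gene H2-Ea is defective in this strain. H2-Aa measured 7.27, 7.58 and 7.64 in miR-143DOX replicates 1, 2 and 3, against 7.75, 7.39 and 7.08 in control replicates 1, 2 and 3. H2-Ab1 measured 6.90, 7.25 and 7.17 in miR-143DOX replicates 1, 2 and 3, against 7.62, 6.73 and 6.90 in control replicates 1, 2 and 3. Control replicate 1 was the highest array for both of these chains, and the spread within the control group exceeded the difference between the groups. The differences were 0.09 for H2-Aa (95% interval -0.30 to 0.48), 0.03 for H2-Ab1 (95% interval -0.43 to 0.49) and 0.006 for H2-Eb1 (95% interval -0.31 to 0.32). H2-Ea, a pseudogene in the RefSeq annotation of C57BL/6J, lay under the filter, at 4.38 ± 0.21 in miR-143DOX and 4.42 ± 0.13 in control (SD, n = 3 each).

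**Figure D3:**
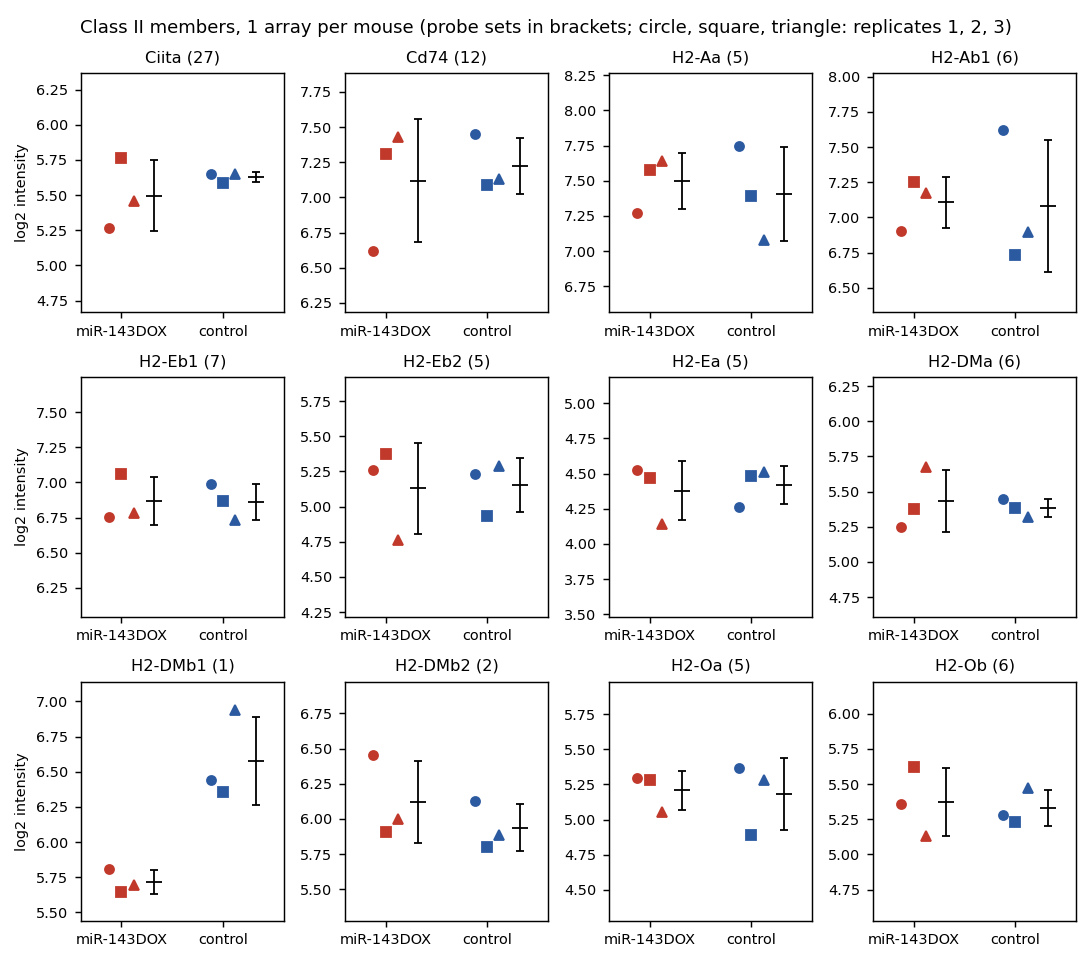
Log2 intensity of the 12 class II members in each array, miR-143DOX on the left and control on the right of each panel, with the mean and SD of the 3 arrays beside the points. All panels span the same number of log2 units. H2-DMb1, at 5.72 in miR-143DOX and 6.58 in control, is the panel in which the groups do not overlap.

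DM is the endosomal heterodimer that edits the peptides of class II molecules, with an alpha chain from H2-DMa and a beta chain from H2-DMb1 or its duplicate H2-DMb2. H2-DMb1 measured 5.81, 5.65 and 5.69 in miR-143DOX replicates 1, 2 and 3, against 6.44, 6.35 and 6.94 in control replicates 1, 2 and 3. All miR-143DOX arrays lay below all control arrays, at a difference of -0.86 (standard error 0.17, 95% interval -1.22 to -0.50), which is 0.551-fold. The gene ranked 4 of 15312 by unadjusted limma p (0.000233), with an adjusted p of 0.735 over all genes, so it did not pass. The adjusted p was 0.424 or more over the alternatives, and without single arrays the difference was from -0.97 to -0.68.

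This value rests on 1 probe set, the only one that names H2-DMb1 alone. The 3 probe sets that name H2-DMb1 and H2-DMb2 together averaged 5.99, 6.04 and 5.99 in miR-143DOX replicates 1, 2 and 3, against 5.59, 5.85 and 5.54 in control replicates 1, 2 and 3. They were higher in every miR-143DOX array as a mean, while each of the 3 overlapped on its own, with differences from 0.11 to 0.48. When these shared probe sets were counted for both genes, the difference of H2-DMb1 turned to 0.045. H2-DMb2 alone, over 2 probe sets, measured 6.45, 5.91 and 6.00 in miR-143DOX replicates 1, 2 and 3, against 6.12, 5.80 and 5.89 in control replicates 1, 2 and 3, a difference of 0.18 (95% interval -0.18 to 0.55). Whether the lone probe set and the shared ones read different transcripts was not tested. The alpha chain gene H2-DMa differed by 0.05 (95% interval -0.27 to 0.37). H2-Oa and H2-Ob encode DO, an inhibitor of DM found mainly in B cells, and differed by 0.03 (95% interval -0.31 to 0.37) and 0.04 (95% interval -0.29 to 0.38). The 5 probe sets of H2-Oa ranged from -0.55 to 0.41, and with their median in place of the mean the difference was 0.43.

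**Figure D4:**
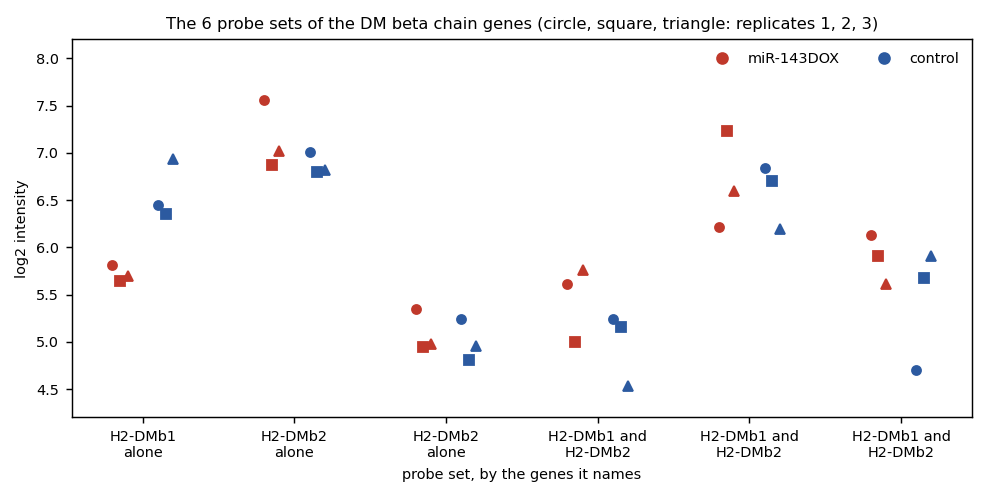
Log2 intensity of the 6 probe sets of the DM beta chain genes, by the genes each names, with the 3 miR-143DOX arrays left of the 3 control arrays. The probe set of H2-DMb1 alone is separate between the groups, and the other 5 overlap.

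The promoters of the tested members whose groups were separate are shown here with that of B2m, whose groups overlapped, because class I and class II promoters carry a common module that Nlrc5 and Ciita act through. Each is the 150 bases before the transcript start in RefSeq (GRCm38.p6), 5′ to 3′ on the strand of the gene. Capitals mark matches on either strand to CCAAT, the box bound by NF-Y, to TGACG, the core of a cyclic AMP response element, and to a pair of GAAA separated by NN, a form of the interferon-stimulated response element. The windows are chr17:34153041-34153190 on the plus strand for H2-DMb1, chr17:35439005-35439154 on the plus strand for H2-Q7, chr17:36032702-36032851 on the minus strand for H2-T23, chr17:35262944-35263093 on the plus strand for H2-D1 and chr2:122147537-122147686 on the plus strand for B2m.
H2-DMb1: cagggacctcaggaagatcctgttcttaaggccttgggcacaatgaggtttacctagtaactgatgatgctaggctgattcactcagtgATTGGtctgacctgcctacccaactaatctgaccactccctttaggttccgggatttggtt
H2-Q7: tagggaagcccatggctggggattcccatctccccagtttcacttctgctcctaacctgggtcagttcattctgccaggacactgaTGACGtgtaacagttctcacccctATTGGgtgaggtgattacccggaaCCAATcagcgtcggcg
H2-T23: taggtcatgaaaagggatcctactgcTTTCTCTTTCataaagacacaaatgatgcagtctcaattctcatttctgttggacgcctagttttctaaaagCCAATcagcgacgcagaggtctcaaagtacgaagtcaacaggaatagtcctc
H2-D1: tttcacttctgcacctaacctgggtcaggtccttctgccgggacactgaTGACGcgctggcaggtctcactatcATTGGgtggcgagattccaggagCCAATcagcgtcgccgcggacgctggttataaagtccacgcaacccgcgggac
B2m: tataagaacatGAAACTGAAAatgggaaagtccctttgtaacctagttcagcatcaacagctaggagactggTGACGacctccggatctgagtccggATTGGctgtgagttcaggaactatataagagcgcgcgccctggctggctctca

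In H2-D1, H2-Q7 and B2m a TGACG stands upstream of an ATTGG, the reverse complement of CCAAT, at a distance of 25, 24 and 25 bases between their first letters. H2-DMb1 holds the ATTGG without a TGACG in this window, and H2-T23 holds a CCAAT and a match to the paired GAAA. RefSeq gave windows for 33 of the 48 genes, 36 in all. Those of H2-K1 overlap each other, as do those of H2-M9, and related class I genes have similar promoters. The windows are therefore not independent. Over the 250 bases before the start, 32 of these 36 held a CCAAT on either strand (88.9%), against 33.8% of 32851 windows of all genes. A TGACG was held by 14 of 36 (38.9%), against 17.8% of all windows, and the paired GAAA by 3 of 36 (8.33%), those of B2m, H2-T22 and H2-T23, against 2.98% of all. The spaced arrangement of TGACG and ATTGG, 24 to 26 bases apart, was held by 7 of the 36 windows, from B2m, H2-Aa, H2-D1, H2-K1 with 2 windows, H2-M3 and H2-Q7, and by 0.1035% of all 32851 windows. This spacing was chosen after the sequences were seen. Other forms of the interferon-stimulated response element were not searched, so a window without the paired GAAA may still hold one. The matches are descriptions of letters, and neither occupancy nor the effect of a match was measured.

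Across the 6 arrays, Nlrc5 varied together with part of the class I genes. H2-K1 and Tap1 took the same order over the arrays as Nlrc5, with Spearman's rho = 1 for both. The two-sided exact permutation p of 0.00278 is the smallest possible, with an adjusted p of 0.0486 over 35 relations. This order rests in part on near-ties. Nlrc5 was 6.692 in control replicate 2 and 6.701 in miR-143DOX replicate 2. Tap1 was 7.820 in control replicate 1 and 7.821 in control replicate 3. Pearson's r was 0.96 for H2-K1 (exact permutation p = 0.00139, adjusted p = 0.0486) and 0.87 for Tap1 (exact permutation p = 0.0236, adjusted p = 0.165). The 35 relations are those of Nlrc5 with the other 25 tested class I members and of Ciita with the other 10 of class II. They were computed after the values had been seen. The adjusted p covers these 35 alone and not all genes, so it is a description and calls no gene. For H2-D1 and H2-Q10 Pearson's r with Nlrc5 was 0.91 each (exact permutation p = 0.0111 and 0.0208, adjusted p = 0.13 and 0.165) and Spearman's rho 0.83 and 0.94 (exact permutation p = 0.0583 and 0.0167, adjusted p = 0.292 and 0.117). Without the 2 arrays farthest from the median of Nlrc5, r was 0.91 for H2-K1, 0.90 for Tap1, 0.54 for H2-D1 and 0.996 for H2-Q10. With each value taken as its deviation from the mean of its own group, r was 0.96 for H2-K1, 0.86 for Tap1, 0.99 for H2-D1 and 0.93 for H2-Q10. Each group holds 3 arrays, too few for a value within it.

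The other class I members varied in their relation to Nlrc5, and none of them had an adjusted p under 0.05 over the 35 relations. H2-T23 had r = 0.81 (exact permutation p = 0.0458, adjusted p = 0.229) and rho = 0.83 (exact permutation p = 0.0583, adjusted p = 0.292), and r was 0.47 without the 2 farthest arrays. H2-Q1 ran opposite to Nlrc5, with r = -0.80 (exact permutation p = 0.0458, adjusted p = 0.229) and rho = -0.94 (exact permutation p = 0.0167, adjusted p = 0.117). B2m had r = -0.32 with Nlrc5 (exact permutation p = 0.562, adjusted p = 0.845) and rho = -0.20 (exact permutation p = 0.714, adjusted p = 0.925), and H2-t9 had r = -0.96 (exact permutation p = 0.00694, adjusted p = 0.122) and rho = -0.94 (exact permutation p = 0.0167, adjusted p = 0.117). Over the 25 members the median r was 0.05, with 3 over 0.9, against a median of -0.10 and 1.35% over 0.9 among the other 15311 genes tested. None of the 10 relations of Ciita with class II members had an adjusted p under 0.05. For Pearson's r, 0 were at an unadjusted exact p under 0.05. Pearson's r ranged from -0.75 for H2-DMb2 to 0.67 for Cd74 (exact permutation p = 0.142, with rho = 0.37 at p = 0.497).

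**Figure D5:**
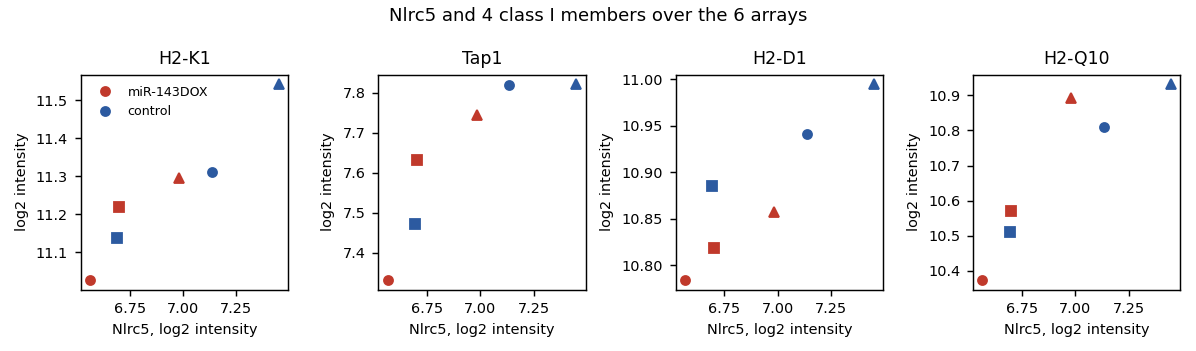
Log2 intensity of H2-K1, Tap1, H2-D1 and H2-Q10 against that of Nlrc5, 1 point per array, with miR-143DOX in red and control in blue. H2-K1 and Tap1 are ordered as Nlrc5 is, with miR-143DOX replicate 1 lowest and control replicate 3 highest. Tap1 is nearly equal in control replicates 1 and 3.

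The other genes of the pathway gave 0 calls at 5% FDR in limma in any list. Beside the counts below, 3.06% of all 15312 genes tested had an unadjusted limma p under 0.05, and 47.6% lay below 0. The immunoproteasome and PA28 list, whose proteins take part in making peptides for class I, had 1 of 5 genes below 0. Its median was 0.01, with 0 genes at an unadjusted p under 0.05. Psme1, a PA28 subunit gene of this list, differed by 0.29 (standard error 0.16). The 10 genes of peptide trimming and loading had a median of -0.03 and 1 gene at an unadjusted p under 0.05, the chaperone gene Hspa5, at -0.39 (standard error 0.17). In the same list the loading chaperone genes Calr and Pdia3 both differed by -0.29, with overlapping groups. The 9 genes of class II peptide processing, the 8 promoter factors such as Rfx5 and the 11 genes of interferon gamma signalling each had 0 genes at that threshold, with medians of -0.0022, -0.0042 and 0.02. Irf1, an interferon-induced activator of class I genes, measured 6.79, 6.79 and 6.92 in miR-143DOX replicates 1, 2 and 3, against 6.66, 6.48 and 6.57 in control replicates 1, 2 and 3. Its groups were separate, with miR-143DOX above control, at a difference of 0.26 (standard error 0.13) that did not pass. Of the 32 tested interferon-stimulated genes 16 lay below 0 and 16 above, with a median of 0.01, and 1 was higher at an unadjusted p under 0.05, the ubiquitin-like modifier gene Isg15 at 0.29 (standard error 0.13). The mean log2 of that list ranged from 6.83 to 7.05 in miR-143DOX and from 6.91 to 6.97 in control. The 10 hepatocyte markers ranged from 12.91 to 13.06 in miR-143DOX and from 12.97 to 13.23 in control, with 5 below 0. In that list Serpina1a was lower at an unadjusted limma p under 0.05, at -0.98 (standard error 0.37) with overlapping groups. Apoa1 had separate groups, at -0.15 (standard error 0.13). Sinusoidal endothelial cells of the liver also carry class I and class II, and their 10 markers ranged from 7.29 to 7.78 in miR-143DOX and from 7.62 to 7.75 in control, with 9 of 10 below 0. Among them Clec4g, a lectin gene of these cells, was lower at an unadjusted p under 0.05, with separate groups and a difference of -0.37 (standard error 0.14). Their part in the values of the MHC genes was not tested.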

How the data were processed

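The deposited values are log2 intensities per probe set, taken as log2 because they ran from 1.60 to 15.2. The authors' tool was Partek, per the submitters' processing notes, while no source used here states the background correction, normalization or summary. The table held 234873 probe sets, of which 212097 had 1 gene symbol in the platform annotation. Values were quantile normalized, since the 95th percentiles of the arrays differed by 0.135, above the limit of 0.1. Of 363 probe sets that named a member, 339 named it alone and were averaged per gene. The moderated two-sided test was that of limma 3.58.1 under R 4.3.3, fitted with lmFit and eBayes on group alone. It was adjusted by Benjamini-Hochberg over 15312 genes. This fit alone was also run on simulated gene values. The normalization, the averaging of probe sets, the correlations and the promoter search were not tried that way. Correlations used all 720 orders of the arrays. Members and lists were chosen with earlier results of these data known. Members named with their values were a set of principal genes, in each direction the 4 genes of smallest unadjusted p, and those with separate groups. Of the other lists, up to 4 genes with the smallest p could be named, and Calr and Pdia3 are such genes. Levels of different genes were not compared. Alternatives changed the scaling, the filter, the summary, the model, and left out each array.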

Additional observations from a re-analysis of the deposited data

How the results depend on the processing

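With 3 arrays a group, small differences between dim genes could not be resolved, and genes near the filter lie close to background. The number of genes and of members past 5% FDR was 0 under all 16 alternatives. With the replicate block it was 0 too, with 734 genes at an unadjusted limma p under 0.05, against 469 without the block. Deviations from the group means correlated at 0.107, 0.0468 and 0.296 between same-numbered arrays. Between differently numbered arrays they correlated from -0.257 to 0.151. These values do not settle whether the numbers pair the mice, and the main fit used group alone. Members with separate groups, counted here with the genes under the filter, numbered 5 in the main setting. They numbered 3 on the deposited values and 7 to 14 without single arrays, where fewer arrays have to separate. The share of all genes with separate groups was not counted in these alternatives. Whether the members exceeded it there was therefore not tested. For class I the median difference and the difference in mean log2 were -0.124 and -0.118 with the median over probe sets. Without single arrays the median was from -0.116 to -0.024. Over the changes of scaling, filter, summary and model, the median ran from -0.124 to -0.022. The difference in mean log2 ran from -0.118 to -0.018 over these changes, against -0.063 in the main setting. Signs turned with the median over probe sets for B2m (-0.109), Tap2 (0.0065), H2-Ab1 (-0.012), H2-Eb1 (-0.066) and H2-Ob (-0.141). They turned with the brightest probe set for H2-K1 (0.045), Tap2 (0.324), H2-Aa (-0.0054), H2-DMa (-0.082), H2-T23 (0.0080), H2-M3 (0.167), H2-Q1 (-0.045) and H2-M2 (-0.134). With array weights they turned for B2m (-0.018), Tap2 (0.073) and Tapbpl (0.038), and with shared probe sets counted for H2-DMb1 (0.045) and H2-T22 (-0.011). Without single arrays both signs occurred for B2m (-0.032 to 0.052), Tap2 (-0.132 to 0.065), Tapbpl (-0.115 to 0.140), H2-Aa (-0.073 to 0.260), H2-Ab1 (-0.148 to 0.295), H2-Eb1 (-0.092 to 0.067), H2-Ea (-0.117 to 0.080), Cd74 (-0.257 to 0.150), H2-DMa (-0.071 to 0.143), H2-Oa (-0.115 to 0.124), H2-Ob (-0.083 to 0.162), H2-t9 (-0.0021 to 0.419) and H2-T22 (-0.019 to 0.327). The cause was not tested.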
